A study of Mus musculus with 4 samples.

Results

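The genes described here are the 9 members of the insulin-like growth factor (IGF) system named Igf1, Igf1r and Igfbp1 to Igfbp7, measured in mouse cells that were differentiated toward endothelium from induced pluripotent stem cells (iPSCs). They were taken by gene symbol from the array's platform annotation, which gave 25 of the 45037 probe sets tested and 9 of the 18193 genes. A probe set is a group of short oligonucleotides that reports 1 transcript or a few. The tested cells came from mice with diet-induced obesity (DIO, DIO 1 and DIO 2, n = 2 mice) and were set against cells from healthy mice (control 1 and control 2, n = 2 mice), with 1 array per mouse. Per the labels, all mice were aged 24 weeks, the cells were kept in an endothelial cell medium and were detached with trypsin before total RNA was taken. The labels give no strain or diet composition, nor the number of iPSC lines per mouse, so the p-values measure the spread between these samples, which may be technical.

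IGF1 and IGF2 are secreted growth factors that act through the IGF1 receptor, a tyrosine kinase that feeds the phosphoinositide 3-kinase and MAP kinase pathways. The IGF-binding proteins are secreted carriers that hold IGFs away from the receptor, lengthen their life in blood, or release them when cut by proteases, and several also act on cells without IGF. In the vessel wall, IGFBP7 is a matrix protein of angiogenic endothelium, and IGFBP3 and IGFBP5 bind heparin-like chains in the matrix. Insulin represses the liver gene for IGFBP1, and circulating IGFBP1 and IGFBP2 are known to be low in obesity.

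Between DIO and control cells, 0 of the 9 members passed the test over all genes (limma, adjusted p under 0.05), against 0.0% of all genes. At an unadjusted p under 0.05 there were 0 of 9 members, against 6.58% of all genes. The 95% interval of the difference spanned 0 for all 9. For all members but Igfbp1 and Igfbp2, the 2 controls differed from each other by more than the groups did. Of the 9, 3 had a higher and 6 a lower DIO mean, against 53.2% and 46.7% of all genes, and the median difference was −0.08 on the log2 scale, beside 0.02 over all genes. Without control 2, 5 members had the higher DIO mean and the median was 0.12. For Igfbp1 and Igfbp5, 2 of 9 members, the DIO arrays were both under the controls, against 17.0% of all genes, and 0 of 9 had both over the controls, against 21.4%. With 2 mice a group, the smallest 2-sided p of an exact permutation test is 0.333.

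The cells' identity was checked first, since these arrays read a whole culture, in which fewer cells of a type and less RNA per cell cannot be told apart. The mean level of 17 endothelial markers was 5.83 and 5.75 in DIO 1 and 2, against 5.87 and 5.97 in control 1 and 2, and 13 of the 17 lay below 7.09, the median of all gene means. Cdh5, the junction cadherin of endothelium, was at 8.48 and 9.34 in DIO, against 8.37 and 8.87 in controls, and Esam, Egfl7 and Eng were the other markers above that median. Among the 13 below it, Tie1, Emcn and Fli1 lay below 4 on every array. The 14 pluripotent cell markers averaged 10.63 and 9.53 in DIO, against 10.18 and 9.27 in controls. The 11 measured epidermal markers averaged 7.83 and 8.69 in DIO, against 6.67 and 11.74 in controls, and all 11 were highest on control 2. Control 2 thus stood apart most by its epidermal genes, which lay a median of 5.78 above control 1. Visceral endoderm and liver markers lay a median of 0.92 above it, and fibroblast and smooth muscle markers 0.50. Control 2 was highest for 4 of 12 and 6 of 13 of them. Among them were Afp, at 4.29 and 9.62 in control 1 and 2, and Col3a1, at 7.52 and 10.29, while Acta2, at 9.66 and 8.61, was lower. Differences without control 2 are given for the members and for some of the other genes. The array's 18S ribosomal RNA probe sets averaged 12.30 and 11.96 in DIO and 12.60 and 12.65 in controls. They were lower on both DIO arrays than on both controls, and their part in the results was not tested.

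**Figure D1:**
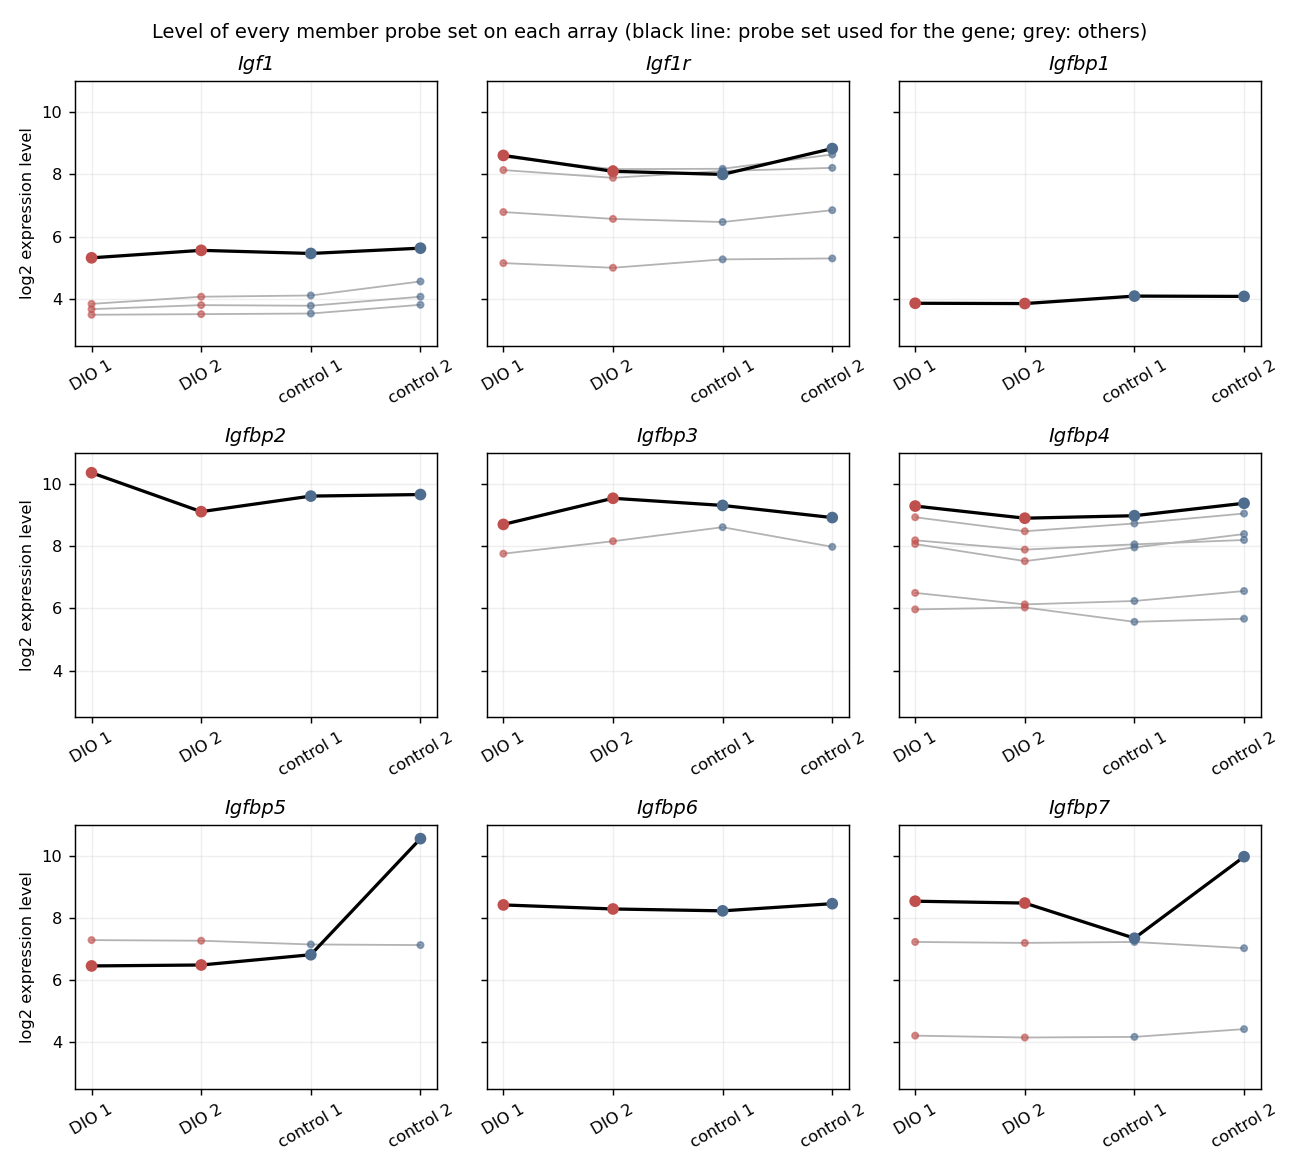
Log2 expression level (vertical axis) of each of the 25 member probe sets on the 4 arrays (horizontal axis), with DIO arrays in red and control arrays in blue. Lines join the values of 1 probe set, black for the one used for the gene. Igfbp5 on control 2 reached 10.55 and Igfbp7 on control 2 reached 9.97, while the other 3 arrays of each lay lower.

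Igfbp5, a matrix-bound carrier that is cut by the proteases PAPPA2 and HTRA1, had the widest range of the 9 members. Probe set 1452114_s_at, used for the gene, was at 6.46 and 6.49 in DIO, against 6.82 and 10.55 in controls. Control 2 stood 3.73 log2 units above control 1, while the DIO arrays differed by 0.02. Of the members, 2 of 9 (Igfbp5 and Igfbp7) were higher on control 2 than on control 1 by 2 or more, against 2.04% of all genes. The group means were 6.48 ± 0.02 in DIO and 8.69 ± 2.64 in controls (SD, n = 2 each), a difference of −2.21 ± 1.30 (SE), with a 95% interval from −5.77 to 1.35 (limma, adjusted p = 0.763). Without control 2 the difference was −0.34. Without control 1, where control 2 is the lone control and is assumed to vary like the DIO pair, it was −4.08.

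The second Igfbp5 probe set did not follow the first. Probe set 1422313_a_at was at 7.29 and 7.27 in DIO, against 7.15 and 7.13 in controls, so both DIO arrays lay above both controls and control 2 was the lowest array. Its difference was 0.14 ± 0.11 (SE, 95% interval −0.16 to 0.44; limma over all probe sets, adjusted p = 0.725). In the manufacturer's naming, a probe set ending in s_at can match transcripts of more than 1 gene, one in x_at can cross-hybridize, and one in a_at matches several transcripts of 1 gene. Which stretches of the Igfbp5 transcript the probe sets read is not given in the sources used here. With both averaged, the difference was −1.04.

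Igfbp7, a carrier of low IGF affinity that binds type IV collagen and the endothelial receptor CD93, also peaked on control 2. Probe set 1423584_at was at 8.54 and 8.48 in DIO, against 7.35 and 9.97 in controls, so the 2 controls bracketed the DIO arrays, 2.61 log2 units apart. The means were 8.51 ± 0.04 in DIO and 8.66 ± 1.85 in controls (SD, n = 2 each). The difference was −0.15 ± 0.92 (SE), with a 95% interval from −2.65 to 2.36 (limma, adjusted p = 0.980). It turned to 1.16 without control 2 and was −1.45 without control 1. The remaining Igfbp7 probe sets varied little. Probe set 1423585_at was at 4.22 and 4.16 in DIO, against 4.18 and 4.43 in controls, and probe set 1437804_at at 7.23 and 7.20 in DIO, against 7.23 and 7.03 in controls. Control 2 was above control 1 by 0.25 on 1423585_at and below it by 0.20 on 1437804_at, so the gap of 2 log2 units or more was seen on 1 of the 3 probe sets.

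Igfbp5 and Igfbp7 are the members with the gap on control 2, and their promoters are shown so that their letters can be compared. The windows run from 250 bases before to 50 bases after the RefSeq gene start (GRCm38.p6), 5′ to 3′ on the gene's strand. Capitals mark the motifs found on either strand. Searched were the TATA box (TATAAA), a variant of it (TATTTAA), the core of the Sp1 box (GGGCGG) and the core of the hypoxia response element (ACGTG). Searched as well were both sites of the insulin response element, the first being CAAAACA and the second being TATTTTG. None of these motifs overlaps another in the windows shown. The Igfbp5 window lies at chr1:72874816-72875115 on the minus strand, and the Igfbp7 window at chr5:77407996-77408295 on the minus strand.
Igfbp5: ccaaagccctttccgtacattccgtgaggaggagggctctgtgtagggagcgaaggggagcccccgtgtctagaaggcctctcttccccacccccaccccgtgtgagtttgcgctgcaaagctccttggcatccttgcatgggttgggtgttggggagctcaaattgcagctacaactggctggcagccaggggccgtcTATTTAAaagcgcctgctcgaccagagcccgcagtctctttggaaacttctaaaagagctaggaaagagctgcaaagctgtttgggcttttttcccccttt
Igfbp7: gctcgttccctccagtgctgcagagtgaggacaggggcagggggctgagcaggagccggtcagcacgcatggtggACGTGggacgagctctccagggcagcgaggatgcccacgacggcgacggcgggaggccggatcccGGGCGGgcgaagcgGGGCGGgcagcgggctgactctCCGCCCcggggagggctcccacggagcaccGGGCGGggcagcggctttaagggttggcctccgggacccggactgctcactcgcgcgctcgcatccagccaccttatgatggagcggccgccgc
The windows differed in make-up. That of Igfbp5 was 56.3% G and C and held the TATA-like letters TATTTAA once, a match found in 4.51% of 32851 promoter windows. That of Igfbp7 was 73.3% G and C and held the Sp1 core 4 times and the hypoxia core once. The Sp1 core occurred in 35.7% of all windows and the hypoxia core in 19.6%. Of the 6 motifs searched, the 2 windows shared none.

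Genes were ranked by likeness to Igfbp5 probe set 1452114_s_at in the profile of levels over the 4 arrays, each centred on its own mean. The nearest among 8922 ranked were Krt16, Crabp2 and Cd44, at Euclidean distances of 0.85, 0.91 and 1.01 log2 units. The ranking does not cover the other Igfbp5 probe set, 1422313_a_at, on which control 2 differed from control 1 by −0.02. Krt16, a keratin of activated epidermis, was at 6.81 and 7.52 in DIO, against 8.36 and 11.43 in controls. Crabp2, a retinoic acid carrier, was at 7.41 and 7.95 in DIO, against 7.26 and 10.87 in controls. Likeness over 4 arrays is a description only, and it rests on control 2. The part of epidermal, fibroblast or other cells in the Igfbp5 and Igfbp7 levels was not tested.

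**Figure D2:**
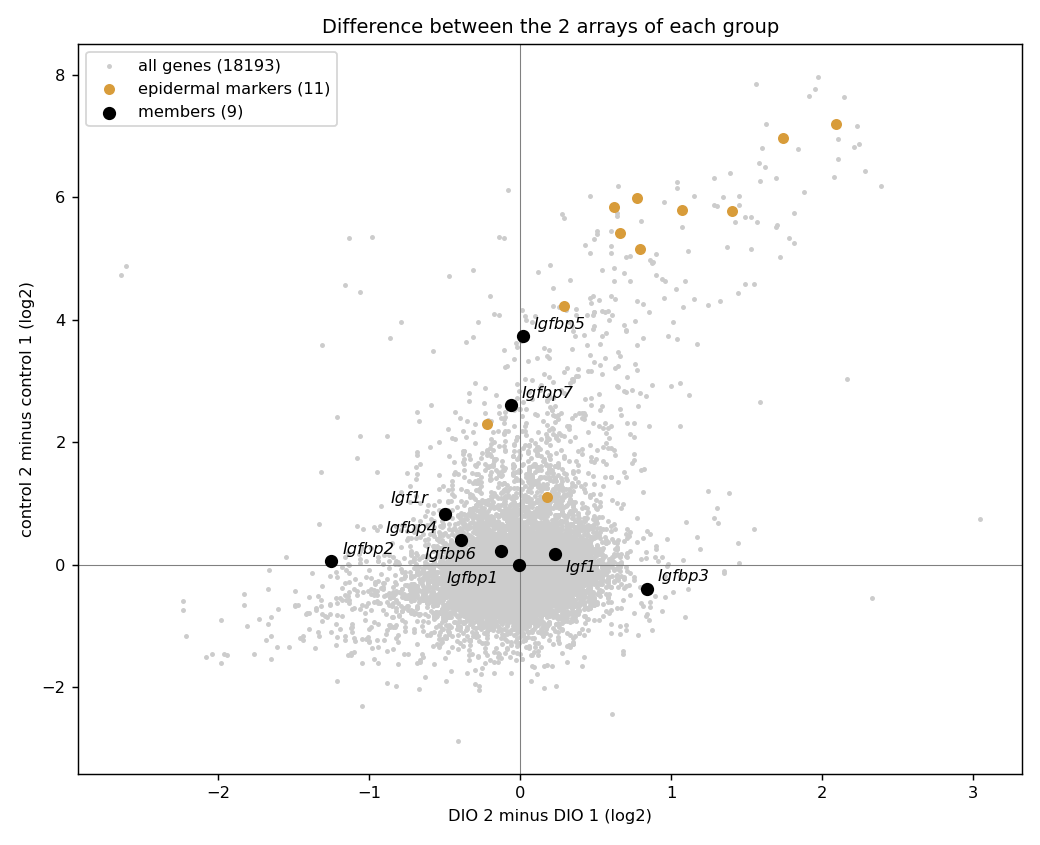
Difference between the 2 DIO arrays (horizontal axis, DIO 2 minus DIO 1, log2) against that between the 2 control arrays (vertical axis, control 2 minus control 1, log2), for 18193 genes in grey, 11 epidermal markers in orange and the 9 members in black. Igfbp5 at 3.73 and Igfbp7 at 2.61 lie high on the control axis near 0 on the DIO axis, while Igfbp2 at −1.25 and Igfbp3 at 0.84 lie apart on the DIO axis.

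Igfbp2, a carrier that binds integrins through an RGD motif and is abundant in embryonic cells, varied within the DIO pair instead. It was at 10.36 and 9.11 in DIO, against 9.61 and 9.66 in controls, so that the DIO arrays lay on either side of the controls. DIO 2 was below DIO 1 by 1.25 log2 units, and 0.77% of all genes were lower by 1 or more in that comparison. The means were 9.74 ± 0.88 in DIO and 9.64 ± 0.04 in controls (SD, n = 2 each), a difference of 0.10 ± 0.45 (SE, 95% interval −1.13 to 1.33; limma, adjusted p = 0.968). It was −0.52 without DIO 1, 0.73 without DIO 2 and 0.13 without control 2. The DIO arrays also differed in the pluripotent cell markers, by a median of −1.24 between DIO 2 and DIO 1, with 13 of 14 highest on DIO 1. Between control 2 and control 1 the pluripotent cell markers differed by a median of −0.92 and Igfbp2 by 0.06. The part of those cells in the Igfbp2 level was not tested.

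Igfbp3, the main IGF carrier of blood, ran the other way within the DIO pair. Probe set 1423062_at was at 8.70 and 9.54 in DIO, against 9.31 and 8.92 in controls, and DIO 2 was the highest array. The means were 9.12 ± 0.59 in DIO and 9.11 ± 0.28 in controls (SD, n = 2 each). The difference was 0.01 ± 0.34 (SE, 95% interval −0.92 to 0.94; limma, adjusted p = 0.999), and it was 0.43 without DIO 1, −0.41 without DIO 2 and −0.19 without control 2. Its second probe set, 1458268_s_at, was at 7.76 and 8.16 in DIO, against 8.61 and 7.98 in controls, with control 1 highest, and differed by −0.34 ± 0.27 (limma over all probe sets, adjusted p = 0.728). That difference was −0.02 without control 1 and −0.65 without control 2. DIO 2 was above DIO 1 on both probe sets, and control 2 below control 1 on both. The differences of control 2 from control 1 were −0.39 and −0.63.

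In the RefSeq table of GRCm38.p6, Igfbp2 and Igfbp5 are next to each other on chromosome 1, and Igfbp1 and Igfbp3 on chromosome 11. On the probe sets used for the genes, neighbours differed unlike each other within groups. Between control 2 and control 1, Igfbp5 differed by 3.73 and Igfbp2 by 0.06, and between DIO 2 and DIO 1, Igfbp3 differed by 0.84 and Igfbp1 by −0.01. On the other Igfbp5 probe set, 1422313_a_at, control 2 differed from control 1 by −0.02, close to Igfbp2. The Igfbp1 levels lie near the bottom of the scale. No test was made of these differences, which each compare 1 array with 1.

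Igfbp1, the carrier that insulin represses in liver, was at 3.86 and 3.85 in DIO, against 4.09 and 4.08 in controls. Both DIO arrays lay below both controls, and the arrays of each group differed by 0.01. The difference was −0.23 ± 0.12 (SE, 95% interval −0.56 to 0.10; limma, adjusted p = 0.750), and it ran from −0.24 to −0.22 with any 1 array left out. The levels lie near the bottom of the scale, which starts at 2.59, and no detection call was used, so how far this probe set stood above background is unknown. The group means were 3.85 ± 0.01 in DIO and 4.08 ± 0.0049 in controls (SD, n = 2 each).

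The Igfbp1 promoter is shown for its insulin response element, which in the human gene is a pair of facing sites bound by FOXO1. The window is chr11:7197537-7197836 on the plus strand of GRCm38.p6, and the capitals mark CAAAACA at position -108 and TATTTTG at position -97, counted from 0 at the gene start.
Igfbp1: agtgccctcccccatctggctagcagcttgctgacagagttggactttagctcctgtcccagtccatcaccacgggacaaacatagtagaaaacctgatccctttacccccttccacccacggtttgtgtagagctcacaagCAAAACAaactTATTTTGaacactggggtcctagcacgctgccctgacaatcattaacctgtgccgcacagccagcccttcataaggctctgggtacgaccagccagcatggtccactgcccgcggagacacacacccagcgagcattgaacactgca
The letters CAAAACA were found in 6.28% of all windows and TATTTTG in 4.36%, and each was in 1 of the 10 windows of the 9 members, that of Igfbp1. Foxo1, which encodes the factor, was at 9.17 and 9.02 in DIO, against 8.73 and 8.55 in controls, a difference of 0.45 with an unadjusted p of 0.0338 that did not pass over all genes (limma, adjusted p = 0.728). It was named here after its values were seen. Its relative Foxo3, also named after its values were seen, was at 10.39 and 10.08 in DIO, against 10.63 and 10.84 in controls. The Foxo3 difference was −0.50 (limma, unadjusted p = 0.0462, adjusted p = 0.728). Foxo1 thus lay above the controls on both DIO arrays, and Foxo3 and Igfbp1 below them. The part of either factor in the Igfbp1 level was not tested.

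Igfbp4, an inhibitor of IGF action that releases IGF when cut by PAPPA, had 6 probe sets. The one used for the gene, 1437405_a_at, was at 9.29 and 8.90 in DIO, against 8.98 and 9.38 in controls. Its difference was −0.08 ± 0.23 (SE, 95% interval −0.71 to 0.54; limma, adjusted p = 0.944), with means of 9.10 ± 0.27 in DIO and 9.18 ± 0.28 in controls (SD, n = 2 each). It was 0.12 without control 2. On 5 of the 6 probe sets the arrays ran in 1 order, control 2 highest, then DIO 1, control 1 and DIO 2. The exception was 1421991_a_at, at 5.97 and 6.03 in DIO, against 5.57 and 5.67 in controls. On that probe set both DIO arrays lay above both controls, by 0.38 ± 0.12 (SE, 95% interval 0.06 to 0.70; limma over all probe sets, unadjusted p = 0.0298, adjusted p = 0.531). It was the 1 member probe set of 25 with an unadjusted p under 0.05, against 9.29% of all probe sets. Another probe set, 1423756_s_at, differed by −0.38 ± 0.26, so the gene's probe sets spanned −0.38 to 0.38.

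Igfbp6, which prefers IGF2 over IGF1, was the member of those above the median of gene means with the narrowest range. It was at 8.42 and 8.29 in DIO, against 8.23 and 8.46 in controls, and the controls bracketed the DIO arrays. The means were 8.35 ± 0.09 in DIO and 8.34 ± 0.16 in controls (SD, n = 2 each). The difference was 0.01 ± 0.15 (SE), and its 95% interval from −0.40 to 0.41 bounds what 2 arrays a group can show (limma, adjusted p = 0.998). It was 0.12 without control 2.

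**Figure D3:**
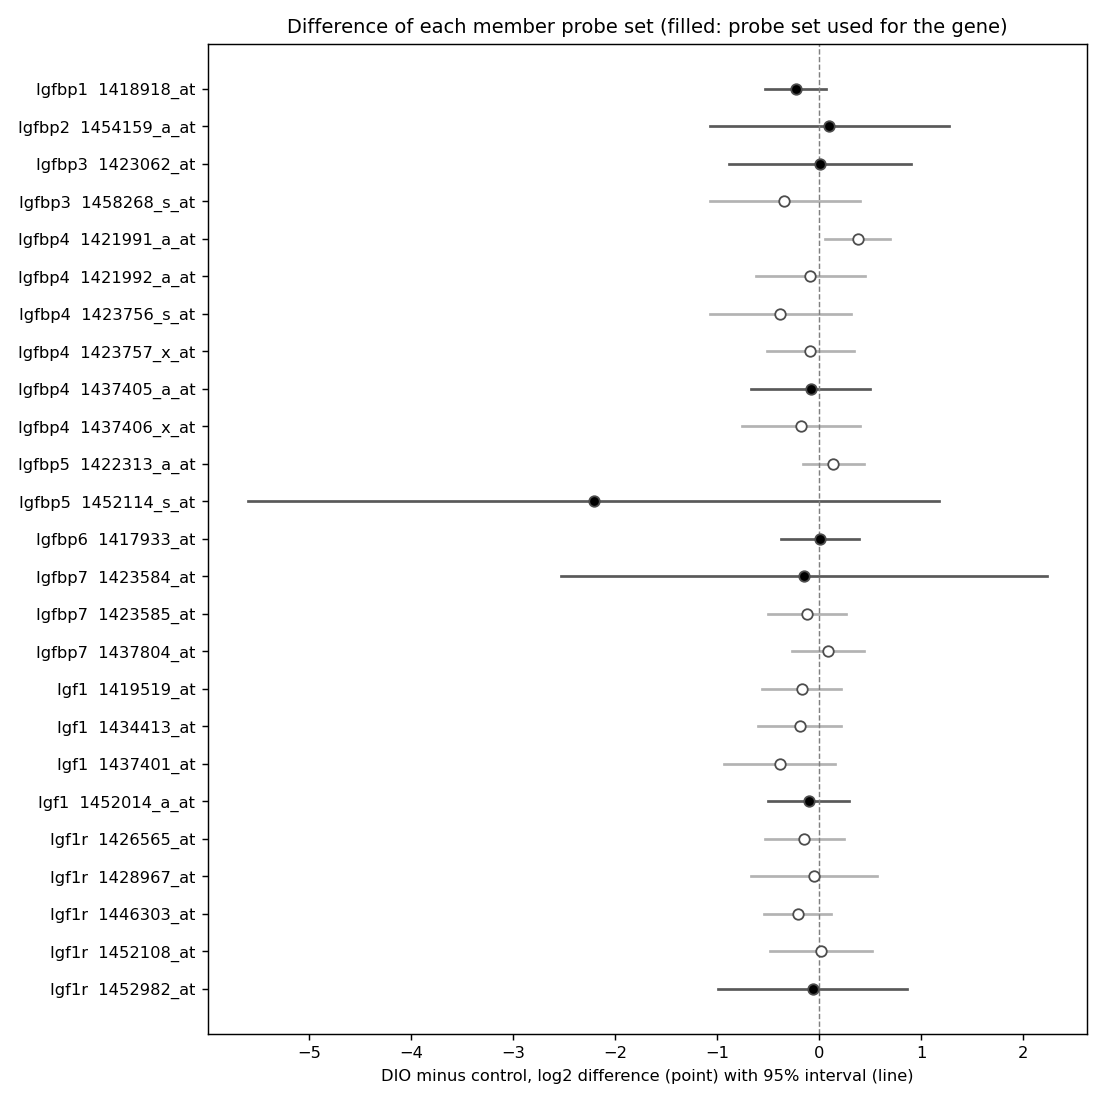
Difference of each of the 25 member probe sets (rows), DIO minus control on the log2 scale (horizontal axis), as a point with its 95% interval from the fit over all probe sets. Filled points are the probe sets used for the genes. The intervals of Igfbp5 1452114_s_at and Igfbp7 1423584_at are the widest, and Igfbp4 1421991_a_at, at 0.38, is the one whose interval lies beside 0.

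Among ligands, Igf1 was low on all 4 of its probe sets. The one used for the gene, 1452014_a_at, was at 5.32 and 5.56 in DIO, against 5.46 and 5.63 in controls, which overlapped. It differed by −0.10 ± 0.16 (SE, 95% interval −0.53 to 0.32; limma, adjusted p = 0.891), with means of 5.44 ± 0.16 in DIO and 5.54 ± 0.12 in controls (SD, n = 2 each). On all 4 probe sets the DIO mean was lower, by −0.38 to −0.10, and control 2 was the highest array. Both DIO arrays lay below both controls on 2 of them. The wider of these was 1437401_at, at 3.84 and 4.07 in DIO, against 4.11 and 4.56 in controls. The gene's difference was 0.01 without DIO 1 and −0.02 without control 2.

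Igf1r, the receptor, had 5 probe sets, and control 2 was the highest array on all 5. Probe set 1452982_at, used for the gene, was at 8.61 and 8.10 in DIO, against 8.0 and 8.83 in controls, which bracketed the DIO arrays. The means were 8.36 ± 0.35 in DIO and 8.42 ± 0.59 in controls (SD, n = 2 each), a difference of −0.06 ± 0.36 (SE, 95% interval −1.04 to 0.91; limma, adjusted p = 0.978). Without control 2 it was 0.35 and without control 1 −0.48, and neither passed. On the other 4 probe sets it ran from −0.21 to 0.02. Both DIO arrays lay below both controls on 1446303_at alone, at 5.15 and 5.0 in DIO, against 5.27 and 5.30 in controls.

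Over the 25 member probe sets, 18 had control 2 as the highest array, against 21.6% of all probe sets, and 6 of the 9 genes did, against 20.9% of all genes. These probe sets share genes, so they are not independent counts. By a median of 0.25, member probe sets were higher on control 2 than on control 1, while all probe sets were at −0.06. Of the 25, 7 had a higher and 18 a lower DIO mean, against 52.4% and 47.5% of all probe sets. The DIO arrays were both over the controls on 2 of 25, against 22.3%, and both under them on 5 of 25, against 19.0%. Without control 2 the split was 11 higher of 25.

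Other genes of the IGF system were described by lists, without a test of any list. Of 7 further ligands, receptors and carriers measured, 4 had a higher and 3 a lower DIO mean, with a median of 0.07, and 0 passed (limma; 0 also had an unadjusted p under 0.05). Igf2, the main IGF of the embryo, was at 13.99 and 14.10 in DIO, against 13.91 and 14.05 in controls, a difference of 0.07 ± 0.13. Igf2r, which clears IGF2 from the surface, differed by 0.07 ± 0.23. The groups overlapped for both genes, and the Igf2r difference was −0.16 without control 2.

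Of 13 proteases that cut IGF-binding proteins and their inhibitors, 7 had a higher and 5 a lower DIO mean and 1 had equal means, with a median of 0.09. At an unadjusted p under 0.05 there were 3 of 13, against 6.58% of all genes, and past the adjusted threshold 0 (limma). Htra1, a serine protease that cuts IGFBP5, was at 11.46 and 10.98 in DIO, against 11.53 and 11.53 in controls, a difference of −0.31 ± 0.20 (limma, adjusted p = 0.775). Both DIO arrays lay below both controls. The difference was −0.08 without DIO 2. Ctsd, the lysosomal cathepsin D, differed by −0.14 ± 0.16, and by 0.01 without control 2. Pappa, the protease of IGFBP4 (named after its values were seen), was at 3.82 and 3.84 in DIO, against 3.46 and 3.49 in controls, and its inhibitor Stc1 was at 5.07 and 5.0 in DIO, against 5.36 and 5.64 in controls. Both were dim, with unadjusted p of 0.0393 and 0.0398 (limma, adjusted p = 0.728 each), and their groups did not overlap, in opposite directions. The protease Adamts1, also dim, differed by −0.80, with both DIO arrays below both controls (limma, unadjusted p = 0.0427, adjusted p = 0.728). The groups overlapped for the relatives Pappa2, which differed by 0.09, and Stc2, which differed by −0.10.

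Of 9 IGFBP-related proteins, 6 had a higher and 3 a lower DIO mean, with a median of 0.09, and 0 passed (limma; 1 of 9 had an unadjusted p under 0.05, against 6.58% of all genes). Ccn1, a matrix signalling protein, was at 9.86 and 9.48 in DIO, against 9.52 and 8.96 in controls, a difference of 0.43 ± 0.26 (limma, adjusted p = 0.767) that was 0.15 without control 2. Ccn2, its relative, differed by −0.22 ± 0.38, and by 0.23 without control 2. The groups overlapped for both.

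Among 11 measured partners of the binding proteins at the cell surface and in the matrix, 3 had a higher and 8 a lower DIO mean, with a median of −0.17, and 0 passed (limma; 0 had an unadjusted p under 0.05). Without control 2, 6 were higher, with a median of 0.02. Rxra, a nuclear receptor that IGFBP3 binds, was at 9.09 and 9.45 in DIO, against 9.66 and 9.66 in controls, a difference of −0.39 ± 0.17 (limma, adjusted p = 0.730) that was −0.14 with the gene's probe sets averaged. Tmem219, the IGFBP3 receptor, differed by 0.31 ± 0.19, and fibronectin, Fn1, by 0.23 ± 0.15, and in each the DIO arrays were both over the controls. Leaving out control 2 gave 0.10 for Tmem219, and averaging its probe sets gave 0.12. Cd93, the IGFBP7 receptor (named after its values were seen), was at 4.22 and 4.20 in DIO, against 4.16 and 4.16 in controls. The mRNA-binding proteins Igf2bp1 and Igf2bp3, which hold IGF2 transcripts, differed by 0.11 ± 0.21 and 0.20 ± 0.18, with overlapping groups, and Igf2bp1 by −0.14 without control 2.

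Downstream of the receptor, 29 substrates and kinases were measured, of which 9 had a higher and 20 a lower DIO mean, with a median of −0.17. The DIO arrays were both over the controls for 5 and both under them for 12, against 21.4% and 17.0% of all genes. At an unadjusted p under 0.05 there were 7 of 29, against 6.58% of all genes, and past the adjusted threshold 0 (limma). Grb10, an adaptor that dampens the insulin and IGF1 receptors, was at 11.43 and 10.95 in DIO, against 9.52 and 10.37 in controls, a difference of 1.25 ± 0.36 (SE, 95% interval 0.27 to 2.23; limma, adjusted p = 0.728). Averaged over the probe sets of Grb10 the difference was 0.40, and it was 0.82 without control 1 and 1.67 without control 2. Pik3cb, a catalytic subunit of phosphoinositide 3-kinase, was at 9.93 and 9.72 in DIO, against 10.66 and 10.50 in controls, a difference of −0.75 ± 0.15. Pdpk1, the kinase that activates AKT, was at 10.41 and 10.24 in DIO, against 10.95 and 10.95 in controls, a difference of −0.63 ± 0.13. Both had an adjusted p of 0.728 (limma), and for all 3 genes the groups did not overlap.

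Hypoxia response genes were listed as well, since low oxygen is known to induce Igfbp1 and Igfbp3 in several tissues. Of 19, 6 had a higher and 13 a lower DIO mean, with a median of −0.18, and 0 passed (limma; 3 of 19 had an unadjusted p under 0.05, against 6.58% of all genes). Without DIO 2 the median was 0.08, with 11 higher. The DIO arrays were both over the controls for 2 of 19 and both under them for 5, against 21.4% and 17.0% of all genes. The 2 over them, named after their values were seen, were Pdk1, which differed by 0.61, and Vegfa, by 0.28. P4ha2, a collagen prolyl hydroxylase, differed by −1.02 ± 0.34, the glycolytic regulator Pfkfb4 by −0.94 ± 0.25 and the oxygen sensor Egln3 by −0.73 ± 0.46. Without control 1, Pfkfb4 was at −1.26, while without control 2 it was at −0.61 and P4ha2 at −0.60. Egln3 was at −1.36 without DIO 1 and −0.10 without DIO 2. Of the 19, 17 were lower on DIO 2 than on DIO 1, and the median was −0.35, beside −0.01 over all genes. Between the same 2 arrays Igfbp3 differed by 0.84 and Igfbp1 by −0.01. The part of low oxygen in the members' levels was not tested.

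**Figure D4:**
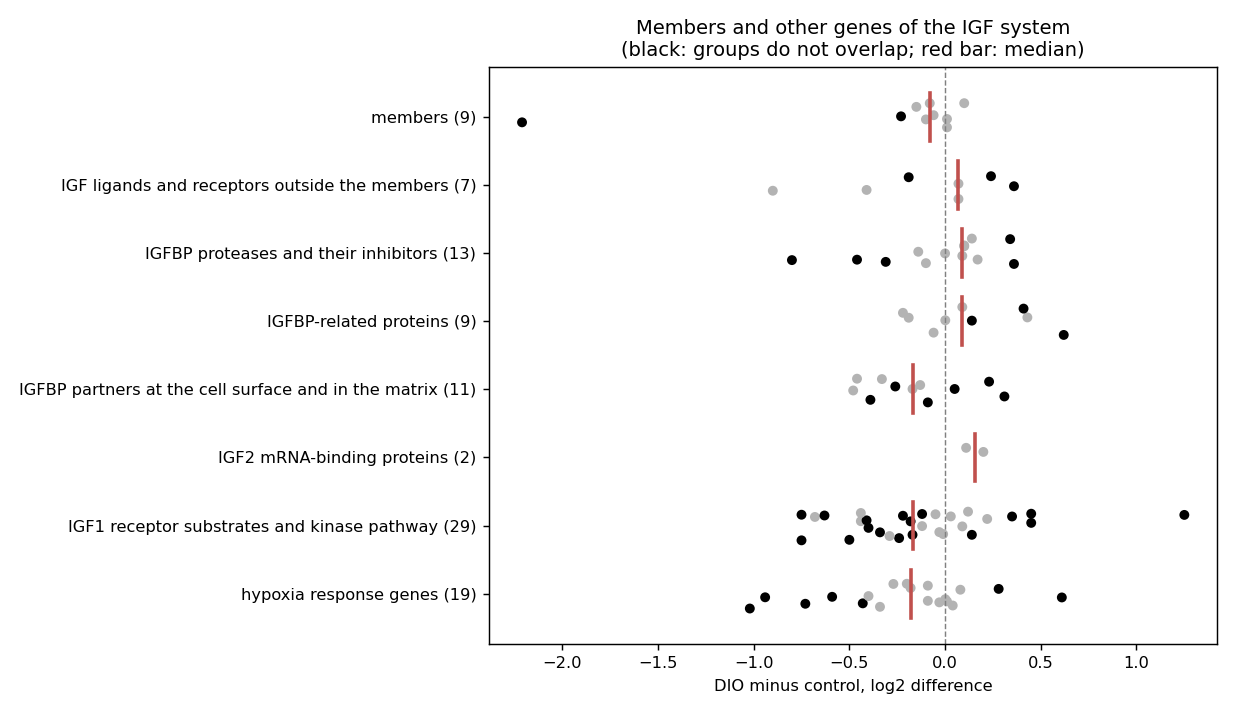
Difference of each gene, DIO minus control on the log2 scale (horizontal axis), for the 9 members and the 7 lists of other genes (rows, number measured in brackets). Black points are genes whose groups do not overlap, grey points those whose groups do, and red bars are medians, which run from −0.18 to 0.16. Igfbp5 at −2.21 (−1.04 with its probe sets averaged, −0.34 without control 2) and Grb10 at 1.25 (0.40 with its probe sets averaged) lie farthest from 0.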

How the data were processed

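Total RNA from 4 cultures was labelled with biotin by the Affymetrix 3′ IVT Express protocol and read on mouse expression arrays, per the labels' protocols. The authors deposited 1 log2 expression level per probe set and array. How background, normalization and summary were handled is not given in the sources used here, so their effect on these levels is unknown. Values spanned 2.59 to 14.56, past the 11.09 that the natural log of a scanner's largest signal can reach, which is why log2 was assumed. The column medians, 5.61 in DIO 1 and 2 and 5.63 and 5.65 in control 1 and 2, were used as deposited.

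Of 45101 probe sets, 64 manufacturer controls were left out. The platform annotation listed 1 gene symbol for 34945 probe sets and several for 932, and did not list 9160. RefSeq (GRCm38.p6) held 34741 of them by gene number. Each of 18193 genes was represented by its probe set with the highest mean. The groups were compared by lmFit and eBayes of limma 3.58.1 (R 4.3.3), with 2-sided p-values adjusted by Benjamini-Hochberg across the 18193 genes, and in a separate fit across the 45037 probe sets. In text, errors of differences are standard errors.

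Promoter windows came from RefSeq, and all 9 members had one. Motifs were searched on both strands. Protein sequences were not used here.

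On simulated arrays of 18193 genes with 200 changed, the fit of DIO against control recovered 0% of changes of 1 log2 unit, 59.0% of 2 and 84.1% of 3, over 5 runs each. The simulated noise was normal, with the same spread in both groups, and spreads were shuffled over genes. These shares therefore do not hold for Igfbp5 or Igfbp7, whose spread lay in the controls. The number of arrays limits the precision: the 95% interval of a gene reached a median of 0.456 to either side.

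The members, the lists and the rule for named genes were chosen with earlier results of these data known. The rule took all members and, of each list, up to 3 genes above the median of gene means whose groups do not overlap, by size of difference, or the brightest to make 2. It also took the 3 genes nearest in profile to the member of widest range. Some genes of the lists were not analysed here. Visceral endoderm, trophoblast, simple epithelial, fibroblast, neural and leukocyte markers were also summarised. Alternatives were quantile normalization, centring, a filter on dim genes, averaged probe sets, a trended and robust eBayes, the mouse number as a block and leaving out each array.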

Additional observations from a re-analysis of the deposited data

How the results depend on the processing

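Results were recomputed under 10 alternatives. The count of genes past the threshold stayed at 0 in 9 of them and was 483 without control 1 (0 to 483 over the arrays left out), where the called members were Igfbp5 and Igfbp7. The count of probe sets ran from 0 to 592 in the same way. With any 1 array left out, 2 to 5 members had a higher DIO mean, and their median difference ran from −0.24 to 0.12. Over the same omissions the differences ran from −0.52 to 0.73 for Igfbp2, −0.41 to 0.43 for Igfbp3, −0.29 to 0.12 for Igfbp4, −0.10 to 0.12 for Igfbp6, −1.45 to 1.16 for Igfbp7, −0.22 to 0.01 for Igf1 and −0.48 to 0.35 for Igf1r. They ran from −0.28 to 0.10 for Igfbp4 1421992_a_at, −0.24 to 0.06 for 1423757_x_at and −0.40 to 0.04 for 1437406_x_at. They ran from −0.25 to 0.01 for Igfbp7 1423585_at, −0.01 to 0.19 for 1437804_at, −0.28 to 0.18 for Igf1r 1428967_at and −0.17 to 0.21 for 1452108_at. Among other genes they ran from −0.003 to 0.14 for Igf2, −0.16 to 0.30 for Igf2r, −0.30 to 0.01 for Ctsd, −0.67 to 0.23 for Ccn2 and −0.14 to 0.36 for Igf2bp1. List medians ran from −0.11 to 0.09 for further ligands and receptors, −0.04 to 0.09 for proteases, −0.19 to 0.02 for partners and −0.34 to 0.08 for hypoxia genes. After quantile normalization Igf1r was at 0.03 and its probe set 1428967_at at 0.03, and Igfbp4 1421992_a_at and 1423757_x_at were at 0.01 each. With averaged probe sets Igfbp3 was at −0.16. Without the dimmest 40% of genes, which removes Igf1 and Igfbp1, the median was −0.19 for further ligands and receptors and −0.14 for proteases. The cause of these turns was not tested.

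At an unadjusted p under 0.05, 594 genes were higher and 604 lower in DIO, against 772 and 473 after quantile normalization. The median of all genes was 0.02, 0.03 after quantile normalization and 0.05 after centring. With the mouse number as a replicate block 0 genes passed (982 at an unadjusted p under 0.05, against 1198 without the block). The deviations of the equally numbered mice correlated at 0.333 over genes, but the mice are different animals and 2 pairs cannot show that the numbers pair the samples.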

Other observations

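Control 2 was the highest array for 3 of 7 further IGF ligands and receptors and for 7 of 29 receptor substrates and kinases, against 20.9% of all genes. The genes named next were chosen after their values were seen, for their height on control 2, and others of the lists, such as Igf2r and Insrr, were lowest there. Ghr, the growth hormone receptor, was at 7.46 and 7.25 in DIO, against 7.07 and 9.44 in controls. Irs1, a docking protein of the insulin and IGF1 receptors, was at 7.21 and 6.91 in DIO, against 6.75 and 8.74 in controls. Insr, the insulin receptor, was at 6.97 and 7.30 in DIO, against 7.13 and 7.96 in controls, and Cav1, the caveolar coat protein, at 7.45 and 6.59 in DIO, against 5.51 and 9.21 in controls. The differences from control 1 were 2.37 for Ghr, 1.99 for Irs1, 0.83 for Insr and 3.70 for Cav1.

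Socs2, a feedback inhibitor of growth hormone signalling, was named after its values were seen. Like Igfbp2 it was lower on DIO 2 than on DIO 1, at 9.76 and 8.38 in DIO, against 9.57 and 9.44 in controls. It was 1.38 log2 units apart between DIO 1 and DIO 2, where Igfbp2 was 1.25 apart. The drop was not particular to these genes. Between DIO 2 and DIO 1, Egln3 differed by −1.26 and the pluripotent cell markers by a median of −1.24. Of all genes, 0.77% were lower by 1 or more. Epidermal markers had a lower DIO mean in 11 of 11, by a median of −0.78, but without control 2 the DIO mean was higher in 10 of 11, by a median of 1.63. Trophoblast markers had a higher DIO mean in 6 of 7, by a median of 0.64, and in 5 of 7 without control 2, with a median of 0.36. Pluripotent cell markers had a higher DIO mean in 13 of 14, by a median of 0.38, and in 5 of 14 without control 2, with a median of −0.11. Visceral endoderm and liver markers, which would include sources of circulating carriers, averaged 5.83 and 6.44 in DIO, against 5.41 and 6.94 in controls. The simple epithelial markers averaged 12.38 and 12.38 in DIO, against 12.26 and 12.37 in controls. Fibroblast and smooth muscle markers averaged 6.66 and 6.87 in DIO, against 6.51 and 7.11 in controls, neural markers 5.63 and 5.73 in DIO, against 5.67 and 5.91 in controls, and leukocyte markers 6.66 and 6.67 in DIO, against 6.72 and 6.68 in controls.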
